A study of Arvicanthis niloticus with 5 samples.

Results

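The visual cycle genes of the eye of the Nile rat (Arvicanthis niloticus), a day-active rodent, were described in 1 pool of eye RNA. They are 10 genes for retinoid enzymes and carriers, chosen by symbol: Rpe65, Lrat, Rdh5, Rdh8, Rdh10, Rdh11, Rdh12, Rlbp1, Rbp3 and Abca4. All 10 were found, on 13 transcripts, among 13982 genes that carried a symbol. The labels list 5 samples of eye tissue from wild-type animals of a strain given as WT, with no treatment, age or time of day, and all fall in 1 group. The protocol in the labels describes a library made from RNA of 5 Nile rats, and the deposited table gives 1 value per transcript for all of them together. Whether that value comes from the pooled library or adds up the 5 samples is not stated, and it is called 1 pool below. There is therefore no replicate error and no test below. Intervals in square brackets are 95% intervals for the counting of fragments only, and do not hold variation between animals, libraries or PCR copies. They also leave out error in the assignment of fragments to transcripts, and treat the transcripts of a gene as counted independently.

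The visual cycle restores the light-sensitive form of retinal after a photon has turned it to the all-trans form in a photoreceptor. In photoreceptors, ABCA4 moves retinal bound to lipid across the disc membrane, and RDH8 and RDH12 reduce all-trans-retinal to retinol. RBP3, secreted by photoreceptors into the matrix between them and the pigment epithelium, carries retinoids across that space. In the pigment epithelium LRAT makes retinyl esters, RPE65 turns the esters into the cis alcohol, and RDH5, with RDH10 and RDH11, oxidises the alcohol to cis-retinal. RLBP1 binds the cis retinoids in pigment epithelium and in Müller glia, the radial glia of the retina, which serve a further route that supplies cones.

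The 3 most abundant members were the carriers Rlbp1 and Rbp3 and the isomerase Rpe65, and every other member stood well below them. Levels are in FPKM, the fragments on a transcript divided by its length in kilobases and by the mapped total in units of 1000000, and are summed over the transcripts of a gene. Rlbp1 stood at 432 FPKM, Rbp3 at 305 FPKM and Rpe65 at 238 FPKM, and together they held 77.4% of the summed FPKM of the 10 genes. The other 7 lay between 16.5 FPKM (Abca4) and 85.0 FPKM (Rdh8), and Rpe65 was 2.80-fold above the highest of them. All 10 members reached FPKM 1, as did 93.2% of all named genes, so that count is near the background. All 10 also reached FPKM 10, against 34.0% of all named genes, and 3 of 10 reached FPKM 100, against 2.21%. The median of the members was 53.5 FPKM and that of all named genes was 6.50 FPKM.

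**Figure D1:**
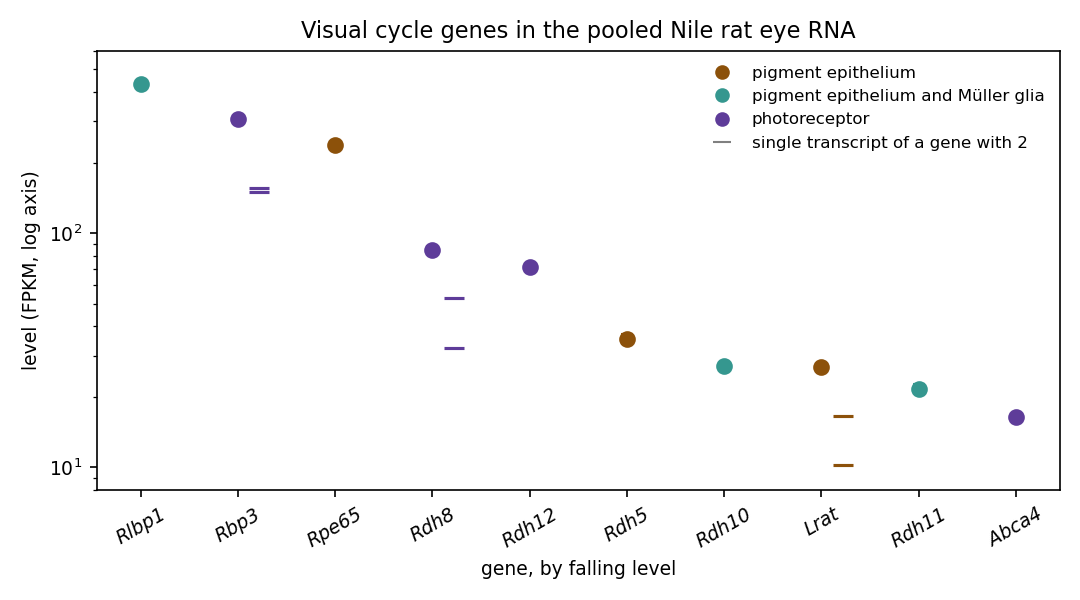
Level of each of the 10 visual cycle genes in FPKM on a log axis, by falling level, with colours for the cells in which the step takes place. Points are sums over transcripts with 95% counting intervals, mostly smaller than the point, and dashes are the single transcripts of Rbp3, Rdh8 and Lrat. Rlbp1, Rbp3 and Rpe65 lie at 238 FPKM or above and the other 7 genes at 85.0 FPKM or below.

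Among the enzymes of the pigment epithelium, the isomerase stood far above the enzyme that makes its substrate. Rpe65 rested on 1 transcript of 2124 nt with 32867 fragments, at 238 FPKM [236 to 241], above 99.3% of all named genes. Lrat, the ester synthase, was the sum of a transcript of 1826 nt at 16.6 FPKM, named in rat and human, and one of 3933 nt at 10.3 FPKM, named in mouse. Its sum was 26.9 FPKM [26.1 to 27.8], above 87.2% of named genes. Rpe65 was 8.85-fold [8.57 to 9.15] above Lrat, a log2 ratio of 3.15. If the Lrat transcripts are pieces of a single mRNA, the sum is too high: a length-weighted mean, all fragments over all lengths, gave 12.3 FPKM and a log2 ratio of 4.28. Rdh5, the dehydrogenase long assigned to the last step in the pigment epithelium, stood at 35.4 FPKM [33.8 to 37.1] on a transcript of 778 nt. With 1788.3 fragments Rdh5 had the fewest of any member, and its interval was the widest of the 10 relative to its level, at 4.66% to each side.

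The carriers were the members of highest level. Rlbp1 had a single transcript of 2163 nt with 60693.6 fragments, at 432 FPKM [428 to 435], and only 41 named genes were higher. It was 1.81-fold [1.79 to 1.84] above Rpe65, a log2 ratio of Rpe65 to Rlbp1 of -0.86. Since Rlbp1 is made by pigment epithelium and by Müller glia, the share of each cannot be told apart in this bulk pool, nor can fewer cells of a type from less RNA per cell. Rbp3 was the sum of a transcript of 2794 nt at 156 FPKM [154 to 157], named in mouse, and one of 2926 nt at 149.8 FPKM [148 to 152], named in human. Summed, Rbp3 stood at 305 FPKM [303 to 308], and Rlbp1 was 1.41-fold [1.40 to 1.43] above it.

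The level of Rbp3 depended on how its 2 transcripts were combined. The transcripts carried 28251.5 and 28485 fragments, so the lower count was 99.2% of the higher. Among the 1302 named genes with exactly 2 transcripts of at least 3 fragments each, the median of this percentage was 55.7%, and 3.84% of the genes were at least as alike as Rbp3. Before rounding, these counts had decimals of 0.46894 and 0.96894, so neither was a multiple of 0.5. Their difference, 233.5 fragments, was a multiple of 0.5 within 1e-05. Among the 1302 genes, neither count was such a multiple in 477, and the same held for 76 of them (15.9%). Lrat was among the 477 but not among the 76. Rdh8 was outside the 477, because its lower count, 1342.5, was itself a multiple of 0.5. Whether fragments were divided between the 2 Rbp3 transcripts, or these are pieces of a single mRNA, was not tested. The highest transcript alone gave Rbp3 a level of 156 FPKM and the length-weighted mean 153 FPKM. Both lie below Rpe65, so that the order of Rbp3 and Rpe65 was set by the summing. Rlbp1 stayed the highest member in each of these ways.

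The dehydrogenases that the pigment epithelium shares with other cells were lower. Rdh10, which also oxidises retinol to retinal for retinoic acid synthesis, stood at 27.1 FPKM [26.4 to 27.9] on 1 transcript of 3215 nt with 5670 fragments. Rdh11, a broadly expressed reductase, stood at 21.7 FPKM [20.8 to 22.6] on 1 transcript of 1587 nt with 2238 fragments. Rdh10 carried its symbol in all 3 species columns, while the human column named the Rdh11 transcript ARSDR1, an older symbol of RDH11. Rdh5 was 1.30-fold [1.24 to 1.37] above Rdh10 and 1.63-fold [1.53 to 1.73] above Rdh11, log2 ratios of 0.38 and 0.70. Counted as fragments without division by length, both turned, to -1.66 and -0.32. These 3 levels lay within a narrow range compared with the gap to Rpe65.

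In photoreceptors the retinal reductases stood above the transporter. Rdh12, found in the inner segment of the photoreceptor, was at 71.7 FPKM [69.9 to 73.5] on 1 transcript of 1320 nt. Rdh8, found in the outer segment, summed 2 transcripts: one of 392 nt, named in human, stood at 52.7 FPKM [49.9 to 55.6], and one of 1209 nt, named in mouse, at 32.3 FPKM [31.1 to 33.6]. The sum, 85.0 FPKM [82.0 to 88.2], was 1.19-fold [1.13 to 1.24] above Rdh12, a log2 ratio of 0.25. This direction turned when the transcripts were not summed: the log2 ratio of Rdh8 to Rdh12 was -0.44 with the highest transcript, -0.94 with a length-weighted mean and -1.15 without transcripts of under 500 nt. The order of these reductases therefore rested on how the Rdh8 transcripts were combined. With transcripts summed Abca4 was the lowest member at 16.5 FPKM [16.1 to 16.8], on the longest transcript of any member, 6930 nt. By length-weighted mean Lrat was lower, at 12.3 FPKM. With transcripts summed, Abca4 was 4.36-fold [4.21 to 4.51] below Rdh12 and 5.17-fold [4.95 to 5.39] below Rdh8, log2 ratios of -2.12 and -2.37. Without the division by length Abca4 would rank otherwise: its 7410.2 fragments were the fourth highest of the members, behind Rlbp1, Rbp3 and Rpe65.

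Over the 5 dehydrogenases and reductases of the Rdh family, the photoreceptor enzymes Rdh8 and Rdh12 stood above Rdh5, Rdh10 and Rdh11 with transcripts summed. Rdh12 was 2.03-fold [1.92 to 2.14] above Rdh5, a log2 ratio of Rdh5 to Rdh12 of -1.02. Without transcripts of under 500 nt, Rdh8 (32.3 FPKM) was below Rdh5 (35.4 FPKM), and Rdh12 was the highest of the 5. Rdh11 and Rdh12 are close paralogs and neighbouring genes, with 0 genes between them in the Nile rat RefSeq annotation of assembly mArvNil1.pat.X. The fragment count of Rdh11 was whole and that of Rdh12, 6149.63, was fractional. Whether fragments of one were assigned to the other was not tested.

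In the order by summed level, Rlbp1, Rbp3, Rpe65, Rdh8, Rdh12, Rdh5, Rdh10, Lrat, Rdh11 and Abca4, only Rdh10 and Lrat could not be told apart by counting error. Their log2 ratio was 0.013 [-0.045 to 0.071]. The other 8 neighbouring pairs had intervals that did not overlap, with log2 ratios from 0.25 for Rdh8 over Rdh12 to 1.49 for Rpe65 over Rdh8. Variation between animals is not in these intervals, so an order among close neighbours such as Rdh11 and Abca4 (log2 ratio 0.40) holds for this pool only. The members spanned ranks 42 to 2905 of the 13982 named genes.

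**Figure D2:**
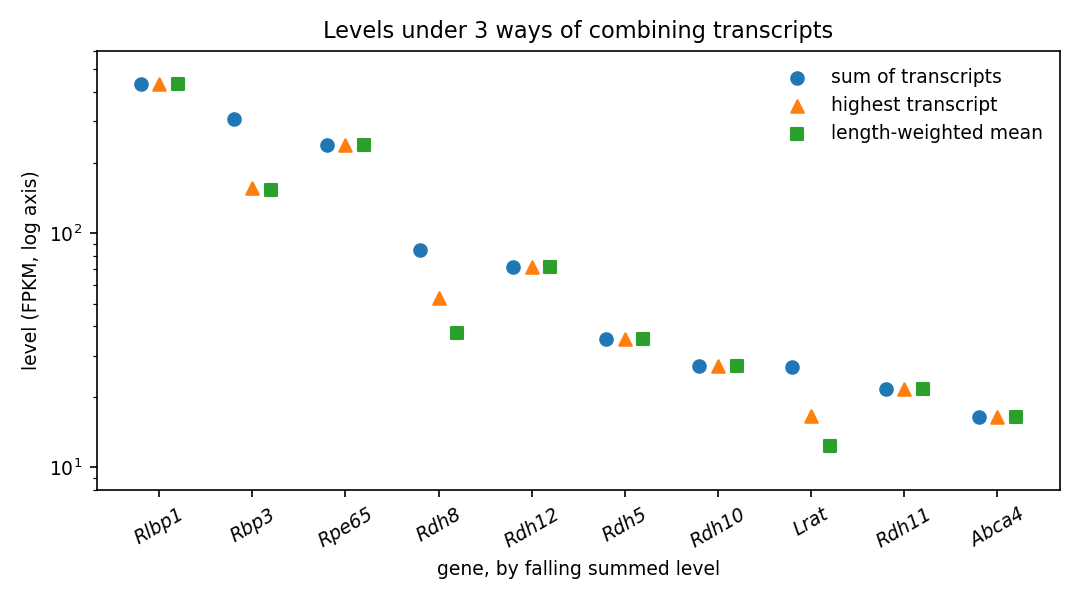
Level of each member in FPKM on a log axis when transcripts are summed (circles), when the highest transcript is taken (triangles) and as a length-weighted mean (squares). The 7 genes with 1 transcript do not move, while Rbp3 goes from 305 to 153 FPKM, Rdh8 from 85.0 to 37.3 FPKM and Lrat from 26.9 to 12.3 FPKM.

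The steps were then set side by side by cell. The pigment epithelium step (Rpe65, Lrat, Rdh5) summed to 300.5 FPKM [297 to 304]. The step shared by pigment epithelium and Müller glia (Rlbp1, Rdh10, Rdh11) summed to 481 FPKM [477 to 484], and the photoreceptor step (Rdh8, Rdh12, Abca4, Rbp3) to 479 FPKM [474 to 483]. In each, 1 gene led: Rpe65 held 79.3% of the first sum, Rlbp1 89.8% of the shared sum and Rbp3 63.8% of the photoreceptor sum. The photoreceptor and shared sums differed by less than counting error, with a log2 ratio of -0.0062 [-0.023 to 0.011]. This rested on the summed Rbp3 and Rdh8. The log2 ratio moved to -0.70 with the highest transcript and -0.79 with a length-weighted mean, which lower both genes. It was -0.17 without transcripts of under 500 nt, which among these genes leaves out only the Rdh8 transcript of 392 nt. Without Rbp3 it was -1.47. The pigment epithelium sum was 1.59-fold below the photoreceptor sum, a log2 ratio of -0.67 [-0.69 to -0.65], and 1.60-fold below the shared sum, a log2 ratio of -0.68 [-0.70 to -0.66].

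These sums turned on the leading genes. Without Rbp3, the log2 ratio of pigment epithelium to photoreceptor was 0.79, and without Rpe65 it was -2.94. With a length-weighted mean over transcripts it was 0.039, and with the highest transcript -0.031. Without Rlbp1, the shared step was the lowest of the 3, with log2 ratios of 2.62 for pigment epithelium and 3.29 for photoreceptor over it. The medians gave another order: 78.4 FPKM for the photoreceptor step, 35.4 FPKM for pigment epithelium and 27.1 FPKM for the shared step. By medians the photoreceptor step was 2.22-fold above the pigment epithelium step and 2.89-fold above the shared one. The place of the shared step thus differed between sums and medians.

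Lists of markers for each cell type gave a scale within the same pool. How far other cells of the eye added to the levels of these markers was not tested. Of 15 pigment epithelium markers 14 were measured, from the phagocytosis receptor Mertk at 0.912 FPKM to the opsin-like Rrh at 172 FPKM, with a median of 15.7 FPKM and a sum of 583 FPKM. Rpe65 stood above all 14 and 15.2-fold above their median, while Lrat and Rdh5 were above 9 of 14, at 1.72-fold and 2.26-fold of the median. No transcript carried the symbol Best1, which was not analysed here. Of these markers 4 (Rgr, Rrh, Stra6 and Ttr) are themselves retinoid genes, and the median of the other 10 was 12.3 FPKM. The median of the pigment epithelium step was 2.26-fold above that of its markers, a log2 ratio of 1.18, which was 0.55 without division by length.

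Of the Müller glia markers 13 of 15 were measured, from the kinetochore gene Spc25 at 2.39 FPKM to the lipid carrier Apoe at 818 FPKM. Their median was 64.3 FPKM and their sum 1769 FPKM. Apoe had no transcript longer than 299 nt, so it drops out when transcripts of under 500 nt are left out. Rlbp1 was above 12 of 13 and 6.72-fold above the median. Rdh10 was above 5 and Rdh11 above 4 of the 13, at 2.37-fold and 2.96-fold below the median. The median of the shared step, 27.1 FPKM, was thus 2.37-fold below that of the Müller glia markers, a log2 ratio of -1.24. With agreeing symbols only, which leaves out Rdh11, it turned to 2.23. The shared step also belongs to pigment epithelium, whose markers had a median of 15.7 FPKM, below that of the step. The direction therefore depended on which markers were used.

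All 18 markers common to rods and cones were measured, from the guanylate cyclase Gucy2f at 1.54 FPKM to Unc119, a ciliary trafficking factor, at 444 FPKM, with a median of 107 FPKM and a sum of 2658 FPKM. Rbp3 was above 14 of 18, and 2.86-fold above the median with transcripts summed. Rdh8 and Rdh12 were each above 7 of 18, and Abca4 was above 4 of 18, at 6.49-fold below the median. The photoreceptor step had a median 1.36-fold below that of these markers, a log2 ratio of -0.45, which was -1.14 without transcripts of under 500 nt and -1.69 without division by length. Of the rod markers 9 of 10 were measured, from the transcription factor Nrl (13.1 FPKM) to the transducin subunit Gngt1 (502 FPKM), with a median of 39.7 FPKM. Of the cone markers 9 of 11 were measured, from the channel subunit Cnga3 (5.49 FPKM) to the opsin Opn1mw (162 FPKM), with a median of 63.7 FPKM. The Opn1mw transcript had only 378 nt. The median of the photoreceptor step, 78.4 FPKM, was above the rod and cone medians, so here too the direction depended on the markers used.

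**Figure D3:**
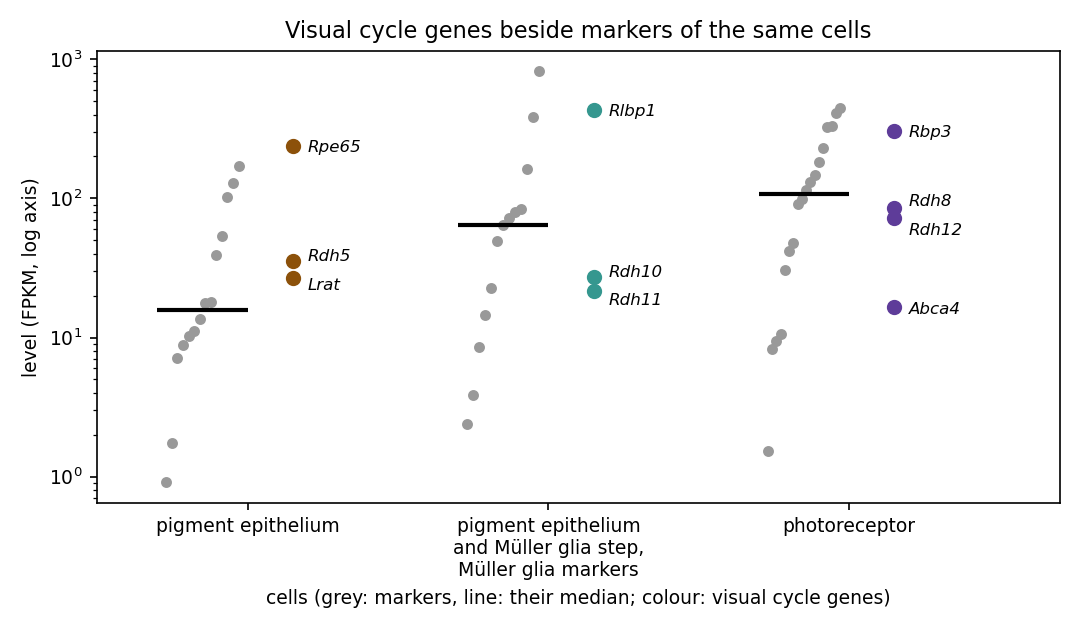
Visual cycle genes (coloured, named) beside markers of the same cells (grey, sorted by level, with a line at their median), in FPKM on a log axis. The step shared by pigment epithelium and Müller glia is set beside Müller glia markers only. Rpe65 lies above every pigment epithelium marker, Rlbp1 above 12 of 13 Müller glia markers, and Abca4 below 14 of 18 photoreceptor markers.

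RNA of other eye tissue was in the same pool, and its part in the levels of members that are not restricted to retina, such as Rdh10 and Rdh11, was not tested. All 6 lens markers were measured, from the water channel Mip at 194 FPKM to Grifin at 1528 FPKM, with a sum of 4288 FPKM. Of the corneal epithelium markers 2 of 4 were measured, Krt12 at 91.0 FPKM and Tkt at 220.4 FPKM. The 4 genes listed as melanocyte markers ran from Slc45a2 at 10.2 FPKM to Tyrp1 at 152 FPKM. Those of skeletal muscle, also 4, ran from Ckm at 28.6 FPKM to Tnnc2 at 174 FPKM. How much pigment epithelium added to the melanocyte markers, or cells outside the cornea to Tkt, was not tested. No transcript carried the symbol of any of the 3 liver markers.

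Retinoid genes outside the 10 were listed by role. Of 45 listed genes 33 were measured, 32 of them at FPKM 1 or more (97.0% of the measured, against 93.2% of all named genes), 20 at FPKM 10 or more (34.0% of all named genes) and 6 at FPKM 100 or more (2.21% of all named genes). The count at FPKM 1 is near the background. Their median was 12.1 FPKM. The other 12 symbols, among them Rbp7, Dhrs9, Awat2 and Bco1, were on no transcript and were not analysed here.

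Cellular and serum carriers were among the highest of the group of binding and transport. Rbp2, a cellular retinol-binding protein known from the intestine, was at 109 FPKM [107 to 112], and transthyretin (Ttr), the partner of serum retinol-binding protein, at 102 FPKM [98.2 to 105]. All 10 measured genes of this group reached FPKM 1, near the 93.2% of all named genes, and 6 of 10 reached FPKM 10, against 34.0%. Its median was 12.3 FPKM, and its lowest member was the endocytic receptor Lrp2 at 1.19 FPKM.

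The opsins grouped as retinal photoisomerases stood between Rpe65 and Rdh8. Rrh (peropsin) stood at 172 FPKM [168 to 176] on a transcript of 667 nt that carried the symbol in human only. Rgr, found in pigment epithelium and Müller glia, stood at 128 FPKM [127 to 130] on a transcript of 4756 nt with 39646.1 fragments. Rgr thus had more fragments than Rpe65 and a lower level per length.

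Among further dehydrogenases and reductases, Adh7 and Dhrs7 alone stood above Rdh11, the lowest of the 5 Rdh members. Of 12 listed, 8 were measured, and their median was 8.91 FPKM. The alcohol dehydrogenase Adh7 was at 56.1 FPKM [54.8 to 57.4], followed by Dhrs7 at 31.6 FPKM and Adh1 at 11.8 FPKM. Of the relatives of the members, Rdh14 was at 7.18 FPKM and Rdh13 at 2.16 FPKM. Sdr16c5, a retinol dehydrogenase of epithelia, was the single measured gene below FPKM 1, at 0.910 FPKM [0.641 to 1.25] from 37 fragments, so that its interval includes FPKM 1. Of the esterases and carotenoid enzymes 2 of 6 were measured, Degs1, a sphingolipid desaturase also proposed as a retinol isomerase, at 48.9 FPKM and Dgat1, an acyltransferase that can esterify retinol, at 8.52 FPKM.

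In retinoic acid metabolism 1 enzyme stood apart. Aldh1a1, which oxidises retinal to retinoic acid and is also abundant in the lens or cornea of some mammals, stood at 367 FPKM [363 to 370], between Rlbp1 and Rbp3. Aldh1a3 was at 15.5 FPKM and Aldh1a2 at 6.89 FPKM. The degrading enzymes Cyp26a1 and Cyp26b1 were at 4.91 and 1.41 FPKM. The 6 nuclear receptors lay between 3.75 FPKM (Rarb) and 20.7 FPKM (Rxrb), with Rxrg at 15.6 FPKM and Rxra at 15.4 FPKM.

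**Figure D4:**
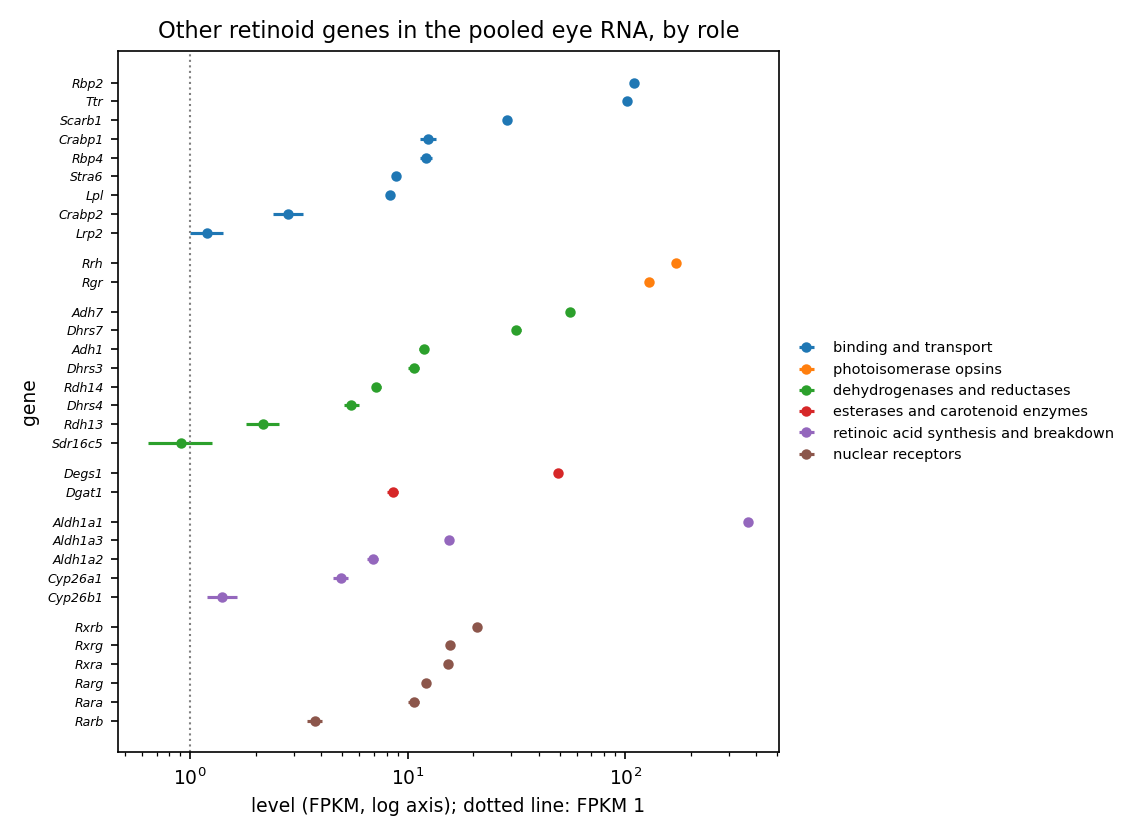
Level of 32 of the 33 measured retinoid genes outside the 10 members, in FPKM on a log axis with 95% counting intervals, grouped by role and sorted within each. Aldh1a1, Rrh, Rgr, Rbp2 and Ttr lie above 100 FPKM, and Sdr16c5 alone lies below the dotted line at FPKM 1.

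Counting error was small for all 10 members. The header of the table states 64967222 mapped fragments, the members carried 1788.3 to 60693.6 fragments each, and the counting intervals reached 0.796% to 4.66% to each side of the level. Naming was a further limit. Of the 13 transcripts of the members, 2 carried a symbol in all 3 species columns and 7 in 1 column only. The other columns gave a database identifier or no entry. No further transcript shared an ortholog identifier with a member in either deposited ortholog table. A piece of a member's mRNA without an ortholog would be missing from its level.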

How the data were processed

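RNA of wild-type Nile rat eyes was sequenced, and 1 library pooled from 5 animals is described in the labels' protocols. Per the submitters' processing notes, Bowtie was used. For its version, the assembler, the way fragments were counted and the genome build, the sources used here give nothing. The estimated counts of fragments deposited by the authors are scaled neither for length nor for depth, and 39.3% of transcripts have a fractional count, 11 of the 13 of the members among them. Summed over all transcripts they came to 66703011 fragments, 102.7% of the total stated in the header. The FPKM deposited by the authors equalled this count divided by transcript length and by the stated total, within a relative tolerance of 1e-05.

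A transcript belonged to a gene if any of the mouse, rat or human columns of the deposited ortholog table gave its symbol, case ignored. For the background each transcript was named once, in the order mouse, rat, human. Levels are sums of FPKM over transcripts, with Fay-Feuer gamma intervals, and log2 ratios have delta-method Poisson intervals. Both were tried on simulated independent Poisson counts, the model that they assume. That trial cannot show how they hold for estimated, partly fractional counts. A count of 0 on 1000 nt would allow 0.0462 FPKM (3 fragments). No count model, p-value or comparison between animals was possible with 1 column. The 9 pairs, 3 steps, marker lists and the list of 45 retinoid genes were chosen with earlier results of these data known. Named are all members, the 3 highest genes of each role and any under FPKM 1, and the highest and lowest marker of each list; Rdh13, Rdh14, Rarb, Lrp2 and the Cyp26 genes were added as further examples after their values were seen. Of the genes under this rule, 1 is not reported here by itself but enters the counts and medians. Likeness of pattern between genes could not be computed from 1 column. Alternatives were the highest transcript, a length-weighted mean, transcripts of at least 500 nt, stricter or ordered naming, TPM (rescaling to a sum of 1000000), fragments without division by length, a pseudocount of 1 FPKM and other detection levels. Leaving out Rbp3, Rlbp1 or Rpe65 from the steps was added after the data were seen. Scripts ran under Python 3.11.15 with pandas 2.3.3 and NumPy 2.4.6. Intervals used SciPy 1.17.1, and plots Matplotlib 3.10.9.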

Additional observations from a re-analysis of the deposited data

Results flagged for a closer look

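Transcripts without a symbol held 52.8% of all fragments, in 108985 of the 124439 transcripts, and entered no comparison above. They stand out as signal outside the measured genes, and their sequences and any relation to the visual cycle genes were not analysed here.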

How the results depend on the processing

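No paired analysis was possible because the deposited table has 1 column and the labels 1 group; for the same reason no sample could be left out. Of 194 recomputed values, 122 stayed within the counting interval or within 1.5 times the count, 57 moved and 15 changed sign. For a median, the widest interval of a gene of its step was used. All counts of members and of retinoid genes past a level stayed within 1.5 times. For the 7 members with 1 transcript, levels and ratios among them could not change with the way of combining transcripts. The 122 thus hold values fixed in advance, and the 57 hold 10 levels rescaled to TPM by 1 factor. These totals are therefore no measure of how stable the results are. Without division by length, the log2 ratios were 2.84 for Rpe65 to Lrat, -0.88 for Rpe65 to Rlbp1, -0.32 for Rdh5 to Rdh11, -1.66 for Rdh5 to Rdh10, -0.66 for Rdh8 to Rdh12, -1.78 for Rdh5 to Rdh12, 0.097 for Rlbp1 to Rbp3, 0.27 for Abca4 to Rdh12 and 0.93 for Abca4 to Rdh8. On that scale the summed steps gave -0.92 (pigment epithelium to photoreceptor), -0.81 (pigment epithelium to shared) and 0.11 (photoreceptor to shared), and the medians of the steps to their markers 0.55 (pigment epithelium), -0.34 (shared) and -1.69 (photoreceptor). These differ from the FPKM ratios by the transcript lengths alone. With the highest transcript the ratios were 3.84 (Rpe65 to Lrat), -0.44 (Rdh8 to Rdh12), 1.47 (Rlbp1 to Rbp3) and -1.68 (Abca4 to Rdh8), the steps -0.031, -0.73 and -0.70 in the same order, and the markers 1.29 (pigment epithelium) and -0.53 (photoreceptor). With a length-weighted mean they were 4.28, -0.94, 1.50 and -1.18 for these pairs, 0.039, -0.75 and -0.79 for the steps, and 1.29, -0.87 and -0.52 for the markers. Without transcripts of under 500 nt, Rdh8 to Rdh12 was -1.15 and Abca4 to Rdh8 -0.97, the steps were -0.50 (pigment epithelium to photoreceptor) and -0.17 (photoreceptor to shared), and the markers -1.03 (shared) and -1.14 (photoreceptor). With agreeing symbols only, Rdh11 was left out and has no value; the steps gave -0.61 (pigment epithelium to shared) and 0.060 (photoreceptor to shared), and the markers 1.67, 2.23 and -0.34. Naming in the order mouse, rat, human gave 1.39 (pigment epithelium) and -1.06 (shared) for the markers. A pseudocount of 1 FPKM gave -2.06 for Abca4 to Rdh12 and -2.30 for Abca4 to Rdh8. Leaving out a leading gene gave, for pigment epithelium to photoreceptor, 0.79 without Rbp3 and -2.94 without Rpe65; for pigment epithelium to shared, 2.62 without Rlbp1 and -2.95 without Rpe65; and for photoreceptor to shared, -1.47 without Rbp3 and 3.29 without Rlbp1. Rescaling to TPM multiplied every level by 0.729. Of the members, only Rbp3, Rdh8 and Lrat have 2 transcripts, so only they shift with the way of combining them. Rdh8 alone has a transcript of under 500 nt. Which markers shifted the medians of the marker lists was not examined.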
